A study of Mus musculus with 8 samples.

Results

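The miR-183, miR-96 and miR-182 cluster was examined in mouse liver under a diet lacking methionine and choline (MCD) and under a normal diet (control). Its members were taken from the probe names of the array. A probe belonged to the cluster where its name, without the species prefix and without a final asterisk, was miR-183, miR-96 or miR-182. This gave 6 of the 1135 miRNA probes, 1 for each guide strand (mmu-miR-182, mmu-miR-96 and mmu-miR-183, written here without the prefix) and 1 for each passenger strand, marked with an asterisk (miR-182*, miR-96* and miR-183*). The MCD group comprised 4 arrays and the control group 4, each from the total RNA of 1 liver sample. The labels give 23 weeks of diet for all mice, whereas the methods describe a shorter feeding time. According to the methods the animals were adult male C57BL/6N mice, and no genetic change or drug was given in either group. The MCD diet is a dietary model of steatohepatitis, in which the liver accumulates fat and becomes inflamed and fibrotic. The labels do not say whether the liver samples came from separate animals, and the p-values cover only the spread among these 8 samples, which may be technical.

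The cluster is a polycistron, a single transcript from which several miRNAs are cut, and its members are known for their high level in sensory cells. In the mouse they are abundant in the hair cells of the inner ear and in photoreceptors, and mutations in the seed of miR-96 cause hearing loss. The seed, the bases with which a miRNA recognises its target mRNA, is similar in the 3 guide strands. Adult liver is not a tissue in which the cluster is known to be abundant.

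All 6 probes could be matched to RefSeq (build GRCm38.p6). The hairpins lie on the minus strand of chromosome 6, in the order miR-183, miR-96 and miR-182 in the direction of transcription, and within 3820 bases. The first pair is 116 bases apart, and 3453 bases lie between miR-96 and miR-182. The long non-coding RNA gene Mirc35hg spans all 3 in the same assembly. The hairpin sequences are shown because each probe reads 1 of the strands in capitals, with the guide strand on the 5′ side and the passenger strand on the 3′ side.
miR-183 hairpin (chr6:30169668-30169737): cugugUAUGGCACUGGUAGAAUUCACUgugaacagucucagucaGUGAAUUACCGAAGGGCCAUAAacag
miR-96 hairpin (chr6:30169446-30169551): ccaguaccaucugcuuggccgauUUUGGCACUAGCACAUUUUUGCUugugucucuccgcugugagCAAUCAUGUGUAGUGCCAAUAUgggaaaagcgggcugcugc
miR-182 hairpin (chr6:30165918-30165992): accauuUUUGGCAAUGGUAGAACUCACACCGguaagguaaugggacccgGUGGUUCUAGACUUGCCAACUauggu

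The mature strands are shown with the seed (bases 2 to 8) in capitals, since the guides resemble each other so closely.
miR-182: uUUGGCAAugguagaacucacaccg
miR-96: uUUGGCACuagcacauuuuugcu
miR-183: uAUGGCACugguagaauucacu
miR-182*: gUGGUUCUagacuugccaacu
miR-96*: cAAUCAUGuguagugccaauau
miR-183*: gUGAAUUAccgaagggccauaa

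The guides miR-182 and miR-96 were identical over their first 7 bases and differed in the last base of the seed (C8A, from miR-96 to miR-182, counted from the 5′ end). Over the whole length, however, miR-182 was closest to miR-183. Set side by side without gaps, these guides matched in 18 of 22 bases (81.8%), with A2U, C8A, U17C and U22A as the changes from miR-183 to miR-182. The match was 12 of 23 bases between miR-182 and miR-96 and 13 of 22 between miR-96 and miR-183. No 2 members shared all 7 seed bases, so each formed a seed group of its own within the cluster. Of the 1738 mature mouse miRNAs in the RefSeq table, 1 outside the cluster had the seed of miR-96 (miR-1271-5p) and 1 that of miR-96* (miR-3475-5p), and none had that of the other 4 strands. How far a probe for 1 guide also binds another was not tested.

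The spots of the cluster lay close to the background. Each array carried 1818 blank spots without a probe and 24 negative control spots, and 2 limits were taken from them, the mean plus 2 SD of the blanks and the mean plus 2 SD of the negative controls. On the 8 arrays the blank limit lay between 232.8 and 261.1 intensity units and the negative control limit between 250.1 and 293.2. The negative control limit of 250.1 was that of MCD 1, and on all other arrays it was 281 or more. The intensity is the median of the pixels of a spot, uncorrected. Over all 6 probes and 8 arrays it lay between 220 and 404. Most of the array was dim too. Of the 1135 miRNA probes, 35.6% were above the negative control limit on MCD 1 and 18% to 24.4% on the others. Ranked by level among the probes, miR-182 was at percentile 81.8, miR-96 at 66.3 and miR-183 at 51.5. The passenger strands ranked lower, with miR-96* at 32.6, miR-182* at 9.52 and miR-183* at 1.67. As a check of the tissue, the hepatocyte miRNA miR-122 had a normalised log2 value of 14.15 in MCD and 14.98 in control liver.

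The spot of miR-182, which is known to repress Foxo transcription factors, had an intensity of 286, 330, 404 and 288 on MCD arrays 1 to 4, against 273, 280, 264 and 254 on control arrays 1 to 4. Every MCD array thus lay above every control array, with MCD 3 highest and MCD 1 and MCD 4 close to the upper control arrays. The mean was 327 ± 55.2 in MCD and 267.8 ± 11.3 in control (SD, n = 4, exact permutation p = 0.0286, two-sided, the smallest that 4 against 4 can give). Uncorrected intensities were ordered in this way for 4.83% of the 1076 tested probes, and in the opposite way for 6.41%. miR-182 was above the blank limit on 4 MCD and 4 control arrays, and was the only member above it on all 8. It was above the negative control limit on MCD 1, MCD 2 and MCD 3 and on 0 control arrays, a pattern (3 or 4 MCD and no control array) seen in 2.97% of the tested probes. MCD 1 passed with 286 against its lower limit of 250.1, and MCD 4 missed its own, with 288 against 288.9. No more than 1 of the 1818 blank spots was as bright as miR-182 on any MCD array, against 2, 27, 4 and 12 on control arrays 1 to 4.

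miR-96, whose seed is that of miR-182 except for the last base, had an intensity of 305, 260, 312 and 251 on MCD arrays 1 to 4, against 245, 248, 243 and 249 on control arrays 1 to 4. MCD 1 and MCD 3 stood well above all control arrays, whereas MCD 4 exceeded the highest of them by no more than the step from 249 to 251. The mean was 282 ± 31.0 in MCD and 246.2 ± 2.75 in control (SD, n = 4, exact permutation p = 0.0286, two-sided, again the smallest possible). As for miR-182, 4.83% of the tested probes were ordered in this way and 6.41% in the opposite way. It was above the blank limit on 4 MCD and 2 control arrays. It was above the negative control limit on MCD 1 and MCD 3 and on 0 control arrays. The share of tested probes with this pattern was not counted. On MCD 1, where the limit was lowest, 35.6% of all 1135 probes passed it. In control liver, 105, 96, 36 and 21 of the 1818 blank spots were as bright, so that its control values are those of a spot near background.

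miR-183, the guide that gives the cluster its name, did not follow this order. Its intensity was 220, 290, 255 and 255 on MCD arrays 1 to 4, against 287, 227, 273 and 258 on control arrays 1 to 4. The groups overlapped fully, with the lowest value on an MCD array and both groups reaching nearly the same height. The mean was 255 ± 28.6 in MCD and 261.2 ± 25.7 in control (SD, n = 4, exact permutation p = 0.743, two-sided). The spot was above the blank limit on 3 MCD and 3 control arrays. It was above the negative control limit on MCD 2 alone.

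Of the passenger strands, which are usually degraded when the guide is loaded, miR-183* had the more even MCD values. They were 256, 265, 254 and 260 on MCD arrays 1 to 4, against 222, 240, 246 and 255 on control arrays 1 to 4. The groups overlapped by MCD 3, which lay below control 4, and control 1 was lowest. The spot was above the blank limit on 4 MCD and 2 control arrays, and above the negative control limit on MCD 1 alone. That limit was lowest on MCD 1, at 250.1. On control 1, 60.2% of the blank spots were as bright or brighter. miR-182* lay between 237 and 267 in MCD and between 237 and 271 in control. miR-96* lay between 235 and 278 in MCD and between 235 and 267 in control. Both were above the blank limit on 3 MCD and 3 control arrays and above the negative control limit on none of the 8, so that all their values lay near the background.

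**Figure D1:**
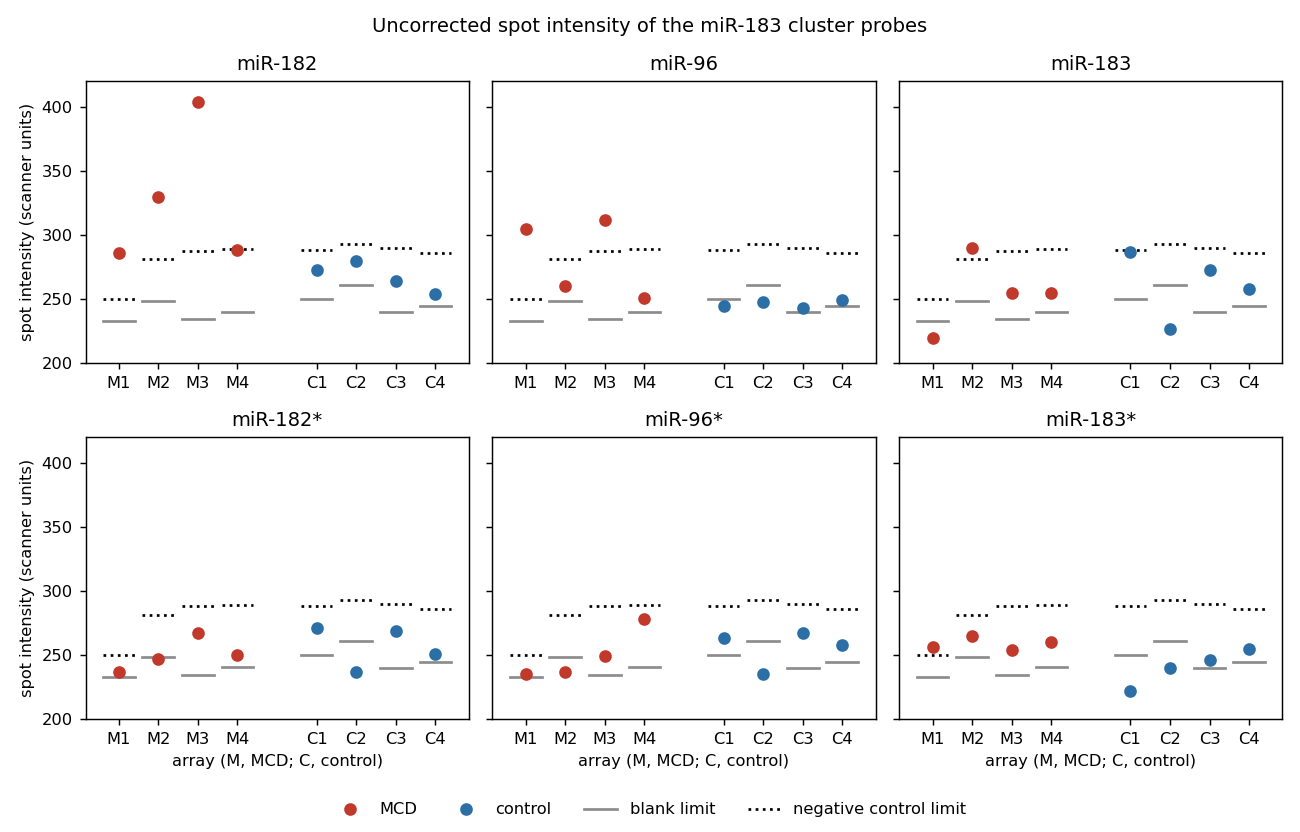
Uncorrected spot intensity (scanner units) of the 6 probes on each array, MCD (M1 to M4) in red and control (C1 to C4) in blue. The grey bar is the blank limit and the dotted bar the negative control limit of that array. miR-182 passes the dotted bar on 3 MCD arrays and miR-96 on 2, while no control array passes it for any of the 6 probes. The dotted bar of M1 is the lowest, at 250.1.

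The brightness of the arrays themselves differed between the diets. The local background, measured beside each spot, had a median of 123, 135, 132 and 140 on MCD arrays 1 to 4, against 155, 158, 144 and 155 on control arrays 1 to 4, so that the groups did not overlap. Beside the miR-182 spot it was 119, 131, 132 and 155 in MCD and 155, 161, 145 and 157 in control. The mean of the blank spots was 203.5 to 217.6 in MCD and 215.5 to 225.3 in control. In the scanner output all MCD arrays carried cell number 2 and all control arrays cell number 1, so that cell number and diet cannot be told apart.

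With the local background subtracted, miR-182 was at 167, 199, 272 and 133 in MCD and 118, 119, 119 and 97 in control. miR-96 was at 184, 130, 182 and 112 in MCD and 96, 95, 104 and 99 in control. miR-183* was at 124, 121, 102 and 101 in MCD and 54, 70, 86 and 78 in control. In these 3 the groups did not overlap (exact permutation p = 0.0286 each, two-sided), but this was true of 16.1% of all tested probes in that direction and of 1.95% in the opposite one. miR-183 was at 97, 157, 119 and 106 in MCD and 134, 74, 128 and 105 in control (exact permutation p = 0.629, two-sided).

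**Figure D2:**
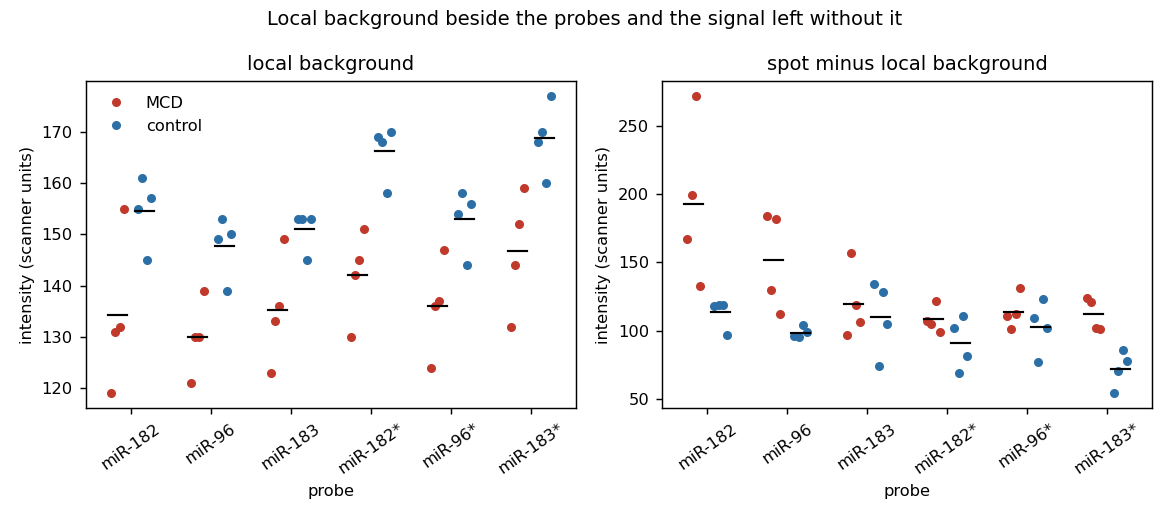
Local background beside each probe (left) and spot intensity minus local background (right), both in scanner units, for the 4 MCD arrays (red) and 4 control arrays (blue), with black bars for the means. The mean background is lower in MCD for all 6 probes, and the right panel separates the diets for miR-182, miR-96 and miR-183*.

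The diets were compared after normexp background correction with the local background, an offset of 50 units and quantile normalization on the log2 scale. Testing required a spot brighter than the blank limit on 4 or more of the 8 arrays, and all 6 members met this. The offset pulls the changes of dim probes such as these towards 0. Among all 1076 tested probes, 10.2% passed limma's test (two-sided, adjusted p under 0.05), 5.76% as higher in MCD and 4.46% as lower. Of the 6 members 0 passed. At an unadjusted p under 0.05, 3 members were higher and 0 lower, where 12.5% of all tested probes were higher and 9.11% lower. The median log2 change was 0.20 over the 6 members and -0.01 over all tested probes. With the arrays scaled to the spike control spots, these medians were -0.02 and -0.24. The normalised log2 values of MCD and control overlapped for each of the 6 members, whereas 8.83% of all tested probes lay wholly higher and 6.23% wholly lower in MCD.

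miR-182 had normalised log2 values of 7.34, 7.59, 7.84 and 7.09 in MCD and 6.99, 7.15, 6.96 and 6.81 in control. MCD 4 lay below control 2, and all other MCD arrays above every control array. The mean was 7.46 ± 0.32 in MCD and 6.98 ± 0.14 in control (SD, n = 4), a log2 change of 0.49 ± 0.15 (SE), or 1.40-fold, with limma's adjusted p = 0.0582. This was the 50th largest rise of 1076. The call depended on the processing, with the threshold passed in 11 of 24 alternative settings, with adjusted p from 0.00562 to 0.194 over all of them. All 24 gave a positive change, from 0.28 to 1.13. Without the local background the adjusted p was 0.0272, in a fit that called 6.04% of the tested probes higher, and without MCD 4, the lowest MCD array for miR-182, it was 0.0120 (change 0.61). Without any 1 of the other 7 arrays it stayed above the threshold, from 0.0528 to 0.170.

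miR-96 had normalised log2 values of 7.45, 7.0, 7.38 and 6.82 in MCD and 6.73, 6.88, 6.77 and 6.84 in control. MCD 1 and MCD 3 were high, and MCD 4 was within the control range. The mean was 7.16 ± 0.30 in MCD and 6.81 ± 0.07 in control (SD, n = 4), a log2 change of 0.36 ± 0.14 (SE, limma adjusted p = 0.142). It passed in 2 of 23 alternative settings, on the authors' processed values (change 1.24, adjusted p = 0.00206) and without MCD 4 (change 0.47, adjusted p = 0.0285), with positive changes from 0.17 to 1.24 in all 23.

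miR-183* had normalised log2 values of 7.01, 6.89, 6.57 and 6.68 in MCD and 6.09, 6.53, 6.48 and 6.60 in control. MCD 3 lay below control 4. Its mean was 6.79 ± 0.20 in MCD and 6.43 ± 0.23 in control (SD, n = 4), a log2 change of 0.36 ± 0.13 (SE, limma adjusted p = 0.135), and it passed in 0 of 24 alternative settings (adjusted p from 0.0835 to 0.549).

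The other 3 members lay near 0. miR-183 was at 6.87 ± 0.29 in MCD and 6.93 ± 0.24 in control (SD, n = 4), a log2 change of -0.06 with a 95% interval from -0.39 to 0.28. For miR-96* the change was -0.04 (from -0.30 to 0.22) and for miR-182* it was 0.04 (from -0.19 to 0.27). None of these passed in any setting tried. The sign of each of the 3 turned in some of these settings.

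**Figure D3:**
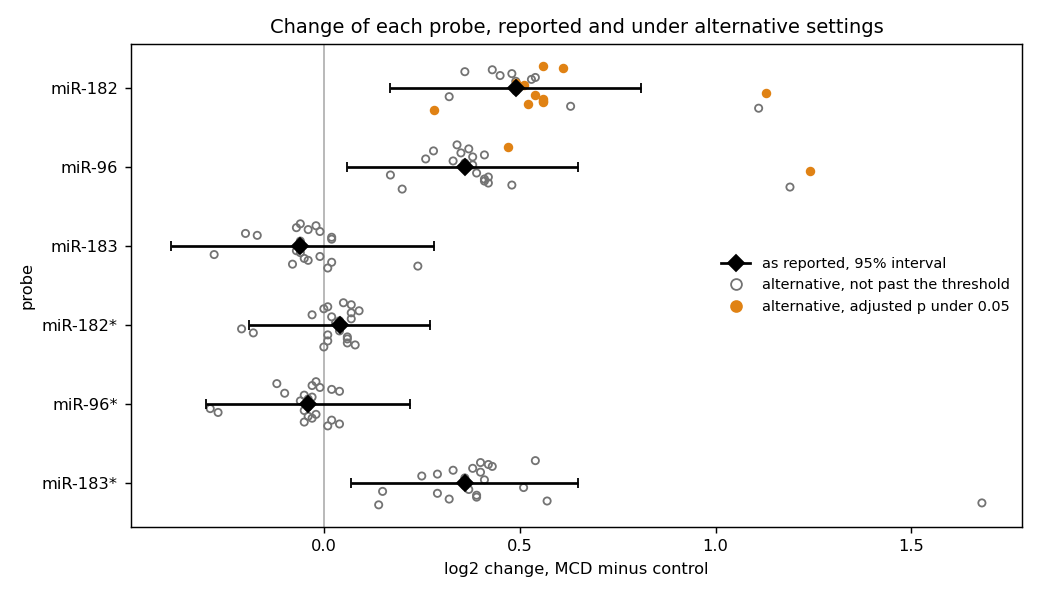
Log2 change (MCD minus control) of each probe, with the reported fit as a black diamond with its 95% interval and each alternative setting as a circle, filled in orange where its adjusted p was under 0.05. miR-182 passes in 11 of 24 settings and miR-96 in 2 of 23, while miR-183 scatters around 0.

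**Figure D4:**
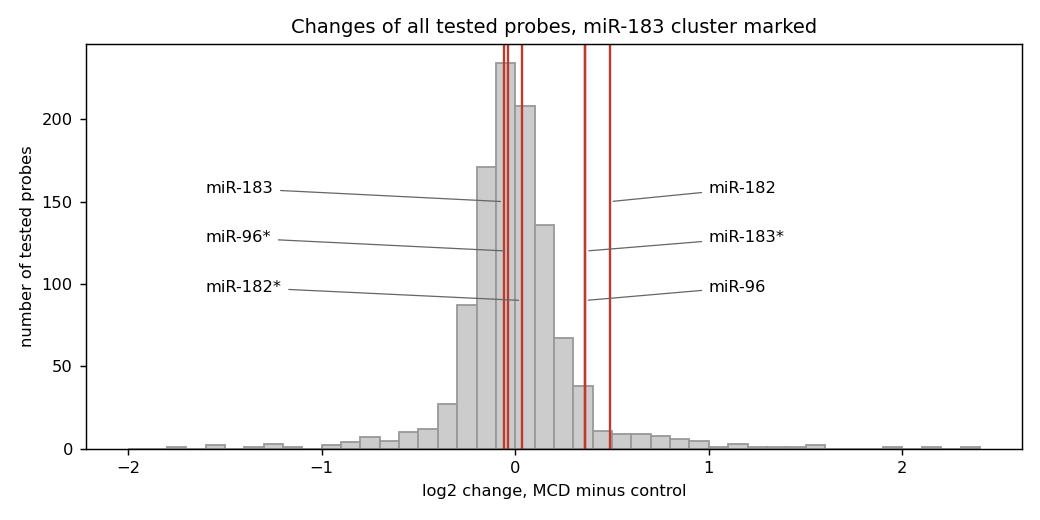
Histogram of the log2 change (MCD minus control) of the 1076 tested probes, with the 6 cluster probes as red lines (those of miR-96 and miR-183*, both at 0.36, lie on each other). miR-182, miR-96 and miR-183* lie on the upper flank, the other 3 near the middle.

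To see whether the guides of the transcript differed from each other in their change, the within-array differences of their log2 values were compared between the diets, for 3 pairs chosen after their values were seen. The change of miR-182 exceeded that of miR-183 by 0.54 ± 0.24 (SE, n = 4 each, exact permutation p = 0.0857, adjusted over the 3 pairs 0.257, two-sided). The change of miR-96 exceeded that of miR-183 by 0.42 ± 0.29 (exact permutation p = 0.200, adjusted 0.300). miR-182 and miR-96 differed by 0.13 ± 0.17 (exact permutation p = 0.486, adjusted 0.486). None of the 3 differences passed, and a difference in change between the guides was not shown. As 4 against 4 can give no permutation p below 0.0286, 1 pair alone could not pass after adjustment over the 3. The test could therefore hardly decide the question.

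Across the 8 arrays, miR-96 and miR-182 varied together with a Pearson correlation of 0.75, or 0.50 after the mean of each diet was removed. miR-183 had a correlation of 0.00 with miR-182 and of -0.40 with miR-96. A guide and its own passenger strand had 0.23 for miR-182, -0.31 for miR-96 and -0.28 for miR-183. These are descriptions over 8 arrays, in which diet and cell number go together. Of the 1070 tested probes outside the cluster, the pattern most like that of miR-182 was found for miR-1839-5p (0.97), miR-377 (0.96) and miR-142-5p (0.96). Of these, miR-377 and the leukocyte miRNA miR-142-5p were higher in MCD, with log2 changes of 0.44 ± 0.12 for miR-377 (SE, limma adjusted p = 0.0344) and 0.52 ± 0.13 for miR-142-5p (adjusted p = 0.0242). When 1 array was left out, miR-377 still passed in 1 of 8 fits and miR-142-5p in 2 of 8, with adjusted p up to 0.0981 and 0.0834. The probes most like miR-96 were miR-467d*, miR-153* and miR-1955-5p (0.95 each), and those most like miR-183 were miR-135b (0.86), miR-292-3p (0.86) and miR-1249* (0.82), none past the threshold. Of these 6 probes, miR-135b, miR-153* and miR-1955-5p never exceeded the limit of the negative controls. The array also held a probe named miR-3475, without a strand in its name. Whether it reads miR-3475-5p, the strand with the seed of miR-96*, was not checked. This probe was at 6.77 in MCD and 6.73 in control (log2 change 0.04 ± 0.13, SE, limma adjusted p = 0.913).

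Since the cluster is found in epithelia and sensory cells, other miRNAs of such cells were counted beside it. Of 18 epithelial probes 3 were higher and 1 was lower in MCD, with a median change of 0.10. The 3 were miR-200a (2.34), miR-200b (2.17) and miR-429 (1.00), all of the miR-200 family, and the lower one was miR-203, named after its values were seen. The median was -0.11 under spike control scaling, where that of all tested probes was -0.24. Of 26 sensory and neural probes 0 were higher and 2 were lower, miR-211* (-1.21) and miR-128-2* (-0.42), with a median of -0.10. This median was -0.33 under spike control scaling. Over all tested probes, 5.76% were higher and 4.46% lower, and no list was tested against these shares. miR-128-2* passed in 15 of 25 alternative settings.

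Marker miRNAs of several cell types also differed between the diets, where 5.76% of all tested probes were higher and 4.46% lower. The sums given here are of uncorrected intensities, so that the brightest probes weigh most. Such probes are miR-122 in the hepatocyte list and miR-200a and miR-200b in the bile duct list. The summed intensity of 10 bile duct probes (the miR-200 family) lay between 3114 and 5213 in MCD and between 2517 and 2623 in control, with 3 of 10 higher, the same 3 probes as in the epithelial list. That of 13 hepatocyte probes lay between 23647 and 30568 in MCD and between 44740 and 58325 in control, with 6 of 13 lower and 7 not called. That of 11 mesenchymal probes lay between 5553 and 9693 in MCD and between 4230 and 4957 in control, with 5 of 11 higher (miR-199a-3p, miR-199a-5p, miR-125b-5p, miR-143 and miR-145). That of 12 leukocyte probes lay between 3527 and 4323 in MCD and between 3415 and 3697 in control, with 3 of 11 tested probes higher (miR-223, miR-142-5p and miR-146b). Of 5 red blood cell probes 0 passed limma's threshold in either direction, and of 2 endothelial probes 1 was higher (miR-126-3p). Of all 1135 probes, 319 were above the blank limit on all 8 arrays. In these lists this held for 2 of 10 bile duct, 8 of 13 hepatocyte, 6 of 11 mesenchymal and 5 of 12 leukocyte probes. It also held for 5 of 5 red blood cell and 2 of 2 endothelial probes. The part of cell composition in the values of miR-182 and miR-96 was not tested, and in whole liver more cells of a type cannot be told apart from more of the miRNA per cell.

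In the authors' processed table, where the blank level was subtracted and each array scaled to a median of 45, probes near the blanks were left empty. miR-182 was listed at 81.45, 110.84, 161.71 and 68.60 in MCD and 46.95, 62.95, 45 and 33.22 in control. Here every MCD array lay above every control array, as for 8.55% of the 573 probes listed on all 8 arrays, with 6.98% in the opposite order. After quantile normalization the groups overlapped. miR-96 was listed at 100.17, 42.05, 85.56 and 33.67 in MCD and 19.63, 27.05, 25.59 and 28.32 in control, again without overlap. miR-183 was empty on MCD 1 and control 2, and otherwise lay between 37.45 and 71.53 in MCD and between 37.15 and 60.61 in control. miR-183* had 4 values in MCD and 2 in control, and miR-182* and miR-96* had 4 and 3, so that the fits of these 4 probes on this table dropped the empty arrays. With limma, the log2 change was 1.13 ± 0.30 for miR-182 (adjusted p = 0.00562) and 1.24 ± 0.30 for miR-96 (SE, adjusted p = 0.00206). That fit called 40 of 1126 tested probes higher and 28 lower. limma shares variance between probes, and the SE there was also 0.30 for miR-200a and miR-200b. These SE and p-values therefore say little about the spread of miR-182 or miR-96 alone. The methods' t-test was run on the same 573 probes, which include miR-182 and miR-96 but no other member. After Benjamini-Hochberg adjustment neither passed, with adjusted p = 0.105 for miR-182 and 0.137 for miR-96, and before it both did, as did 12.4% of these probes in the higher direction.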

How the data were processed

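Total RNA of 8 mouse liver samples was labelled with Hy5 per the labels and hybridised to a mouse miRNA chip, 1 array per sample. The intensities deposited by the authors are, per the file headers, the median and the mean of the pixels of each spot and the median of its local background, uncorrected and on a linear scale. The authors also deposited processed intensity values. These equalled the spot intensity minus a trimmed mean of the blank spots (5% at each end), scaled per array to a median of 45, to within 0.0255%, with probes close to the blanks left empty. The 28S scaling and baseline correction named in the methods were not seen in it.

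From the scanner intensities, all spots of an array were corrected with normexp (local background, offset 50) in limma 3.58.1 under R 4.3.3, then put on the log2 scale, and the 1135 miRNA probes were quantile-normalized between arrays. The groups, taken from the titles, were compared with lmFit and eBayes without a block, and p-values were adjusted (Benjamini-Hochberg) over all 1076 tested probes. Fits were tested on simulated data. Single values were compared by exact permutation over the 70 splits. The rule for named miRNAs took all members and probes named for a miRNA sharing a member's seed, matched without the strand. It also took the 3 probes most like each guide by Pearson correlation, and up to 3 probes per list by smallest p. Called probes of a list outside that rule are named after their values were seen. The members and lists were chosen with earlier results of these data known. Alternatives covered background correction, scaling, filter, test, pixel statistic, the authors' values, the replicate number as a block and leaving out each array. The files name no slide, so a slide block was not run. The number of arrays limits the precision. Mature and hairpin sequences are from RefSeq (GRCm38.p6), with 6 of 6 members matched by name. The older names without and with an asterisk were taken as the 5p and the 3p strand.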

Additional observations from a re-analysis of the deposited data

Results flagged for a closer look

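Among 36 sets of 4 values (6 probes, 2 diets and 3 measures, namely log2 value, spot intensity and mean of the pixels), 1 set had a value far from the rest. The mean of the pixels of the miR-183* spot was 413.0 on MCD 4, against 254.4 to 274.8 on the other MCD arrays. The gap took up 0.871 of the range of the 4 values. Chance alone would give about 1 such set in 20. The median of the pixels of the same spot, which the comparison of the diets used, was 260.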

How the results depend on the processing

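As reported, 62 probes were higher and 48 lower in MCD, and 0 of the 6 members passed. The counts were 30 and 16 after blank subtraction, 34 and 93 under spike control scaling, 40 and 28 on the authors' processed values, and 37 and 24 by the methods' t-test once adjusted. Under global median or 75th percentile scaling 31 were lower, and the share of higher calls was 67.0% or 67.4% against 56.4%, or 26.8% under spike control scaling, which put the median change of all tested probes at -0.24. Leaving out 1 array gave 41 to 68 higher and 25 to 47 lower, with 41 and 25 without control 4, and 30 lower without control 1 and 31 without control 3 or MCD 3.

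The number of members that passed was 2 on the authors' processed values and without MCD 4, and 1 in each other setting in which miR-182 passed. The log2 change of miR-182 where it passed with all arrays was 0.28 without background correction, 0.52 without the local background, 0.56 under global median, 75th percentile or cyclic loess scaling, 0.54 without scaling, 1.13 on the authors' processed values, 0.51 with array weights, 0.49 with the replicate block (adjusted p = 0.0302) and 0.56 with the mean of the pixels, a setting added after the data were seen. miR-96 passed at 1.24 on the authors' processed values. Leaving out 1 array gave 0 to 2 members, 0.36 to 0.61 for miR-182 and 0.26 to 0.47 for miR-96. Without MCD 4, miR-182 and miR-96 both passed.

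Signs near 0 turned without a call in these fits. miR-183 was at 0.01 without background correction, 0.24 after blank subtraction and 0.02 without the local background, and between -0.20 and 0.02 without 1 array. miR-96* was at 0.01, 0.04 and 0.02 in the same 3 settings and between -0.12 and 0.04 without 1 array. miR-182* was at -0.18 under spike control scaling, -0.21 on the authors' processed values and between -0.03 and 0.09 without 1 array. miR-3475 was at 0.00 without background correction, -0.14 after blank subtraction, -0.02 without the local background, -0.19 under spike control scaling, -0.08 on the authors' processed values, -0.04 with the mean of the pixels and between -0.04 and 0.13 without 1 array. The cause of these differences was not tested.

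Same-numbered arrays deviated from their group means with correlations between -0.01 and 0.10, too low to take the numbers as pairs. Of the 8 arrays, 5 correlated best with their own number, a hint from the data and not from the design, and whether such arrays shared a slide was not tested. The replicate block gave 67 higher and 51 lower probes and changed no other member's call than that of miR-182. The filter at 3 SD of the blanks kept 4 members, without miR-96 and miR-182*, and that at the negative controls kept 0 of 6. The low signal over background limits the precision of all 6 members.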
